A study of Mus musculus with 2 samples.

Results

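Ccr7-positive Fscn1-low cells are cDC2 of the mouse lung that carry RNA for the chemokine receptor Ccr7 but little RNA for the actin-bundling protein Fscn1. They were chosen from the library of cells sorted as cDC2. A barcode was kept with at least 500 genes, at least 1000 unique molecular identifiers (UMIs, 1 per captured transcript), at most 10% mitochondrial UMIs and at least 3 UMIs of the cDC2 genes Mgl2 and Cd209a together. Barcodes with 5 or more UMIs of 5 macrophage and monocyte genes, with any Cd79a, or with 4 or more UMIs of 6 cell cycle genes were left out. Of 1926 kept barcodes, 1014 had at least 2 Ccr7 UMIs and under 3 Fscn1 UMIs and are the Ccr7-positive Fscn1-low cells described here (52.6%, exact 95% binomial interval 50.4 to 54.9). They were set beside 11 Fscn1-high cells, with 3 or more Fscn1 UMIs, and 696 Ccr7-zero cells, with no Ccr7 UMI. Another 205 kept barcodes had 1 Ccr7 UMI and entered neither group.

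The cells came from the lungs of C57BL/6 mice at steady state, aged 8 to 10 weeks, dissociated with dispase and sorted by flow cytometry on XCR1 for cDC1 or on CD172a for cDC2. Each sort gave 1 droplet library (10x Chromium v3.1), and the 2 libraries held 5984 barcodes in all, 3045 of them in the cDC2 library. How many mice were used per library is a number not given in the sources used here. All values below are CPM, the UMIs of a gene scaled to the total UMIs of all cells in a group. With 1 library per sort there is no replicate check, cells are not replicates and no test was made. Intervals are 95% counting intervals, and a gene is called higher or lower at a 2-fold ratio, a rule of size.

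Conventional dendritic cells sample antigen in tissues and carry it to lymph nodes, where they meet T cells. Ccr7 is the receptor that draws them along the chemokines Ccl19 and Ccl21 into lymphatic vessels and the node. Mature dendritic cells express Ccr7 together with Fscn1, which bundles actin filaments in their long membrane protrusions, and make the chemokines Ccl17 and Ccl22, both ligands of the chemokine receptor Ccr4 on T cells.

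Ccr7 itself (chr11:99144196-99155077, minus strand, GRCm38) had 1249 CPM in Ccr7-positive Fscn1-low cells, 2703 CPM in Fscn1-high cells and, by the rule, 0 in Ccr7-zero cells. Counts in single Ccr7-positive Fscn1-low cells ran over a wide range, with a lowest value of 2 UMIs, quartiles of 5, 11 and 24, and a highest value of 123. The 11 Fscn1-high cells had 27 to 111 Ccr7 UMIs, with a median of 40. As many as 213 Ccr7-positive Fscn1-low cells reached the 27 Ccr7 UMIs of the lowest Fscn1-high cell. Fscn1, in contrast, was at 0 UMIs in 980 of the 1014 cells, at 1 UMI in 31 and at 2 UMIs in 3. Of the 205 cells just outside the Ccr7 threshold and the 103 just inside it, at 2 UMIs, the inner cells had 1189 CPM of Ccl22 and the outer cells 1008 CPM. Ccl17 had 2901 CPM in the inner cells and 2432 CPM in the outer ones, so both genes differed by under 1.5-fold across the threshold.

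**Figure D1:**
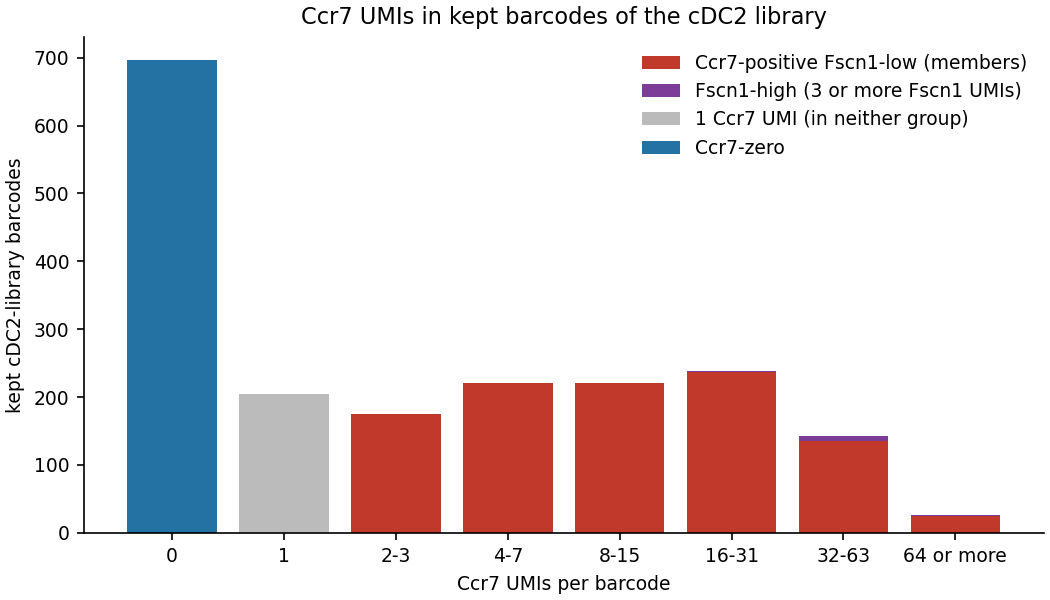
Number of kept barcodes of the cDC2 library (y axis) by their Ccr7 UMI count (x axis), coloured by group. The 1014 Ccr7-positive Fscn1-low cells spread over all bins of 2 UMIs or more, with 175 to 237 cells in each of the first 4 of these bins, and the 11 Fscn1-high cells lie in the 3 highest bins.

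The share of cells above the threshold moved with depth. Ccr7-positive Fscn1-low cells were 35.6% of kept barcodes under 5000 UMIs, 42.5% from 5000 to 9999, 51.9% from 10000 to 14999, 65.2% from 15000 to 19999 and 67.3% from 20000 UMIs up. When each cell was thinned to 5000 UMIs, 43.0% of the 1881 cells deep enough had at least 2 Ccr7 UMIs. The same cut gave 6.32% of 1536 kept cDC1-library barcodes (5.15 to 7.65), or 4.54% of 1520 after thinning. As a measure of free Ccr7 RNA, 6.25% of 32 barcodes rich in the neutrophil genes S100a8 and S100a9 had 2 or more Ccr7 UMIs (0.766 to 20.8), at a median depth of 2938.5 UMIs against 12369.5 in kept barcodes. Among the 192 cDC2-library barcodes with 5 or more macrophage and monocyte UMIs, counted whether or not they met the Mgl2 and Cd209a requirement, the share was 29.7%, at a median of 15386.5 UMIs.

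The Ccr7-positive Fscn1-low cells held 13672111 UMIs with a median of 12785.5 UMIs and 2537.5 genes per cell. The Fscn1-high cells held 200129 UMIs with medians of 18422 UMIs and 3543 genes, and the Ccr7-zero cells 8367990 UMIs with medians of 11741 UMIs and 2644 genes. The limit that a count of 0 allows, 3 UMIs, is therefore 0.219 CPM in Ccr7-positive Fscn1-low cells, 14.99 CPM in Fscn1-high cells and 0.359 CPM in Ccr7-zero cells. The median mitochondrial share was 3.73% in Ccr7-positive Fscn1-low cells, 4.14% in Fscn1-high cells and 3.79% in Ccr7-zero cells. Barcode names shared between the libraries numbered 6, and 0 of them belonged to Ccr7-positive Fscn1-low cells.

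Further markers of the cDC2 lineage were read beside the genes of the rule. Sirpa, which encodes the CD172a protein the library was sorted on, had 109 CPM in Ccr7-positive Fscn1-low cells, 99.9 in Fscn1-high cells and 121 in Ccr7-zero cells, and the cDC2 factor Irf4 had 159.8 CPM in Ccr7-positive Fscn1-low cells, 119.9 in Fscn1-high cells and 147 in Ccr7-zero cells. The 7 cDC2 markers other than Mgl2 and Cd209a, Sirpa included, summed to 871 CPM in Ccr7-positive Fscn1-low cells, 549.6 in Fscn1-high cells and 991 in Ccr7-zero cells. The 9 cDC1 markers summed to 55.2 CPM in Ccr7-positive Fscn1-low cells, and Xcr1 stood at 4.17 CPM there, against 313 CPM in the cDC1-library cells of the same cut, which were sorted on XCR1 and kept by Xcr1 and Clec9a UMIs. Of the 6 genes given as markers of these cells, Ccr7 was used to choose them, and Arap2, Il7r, Hilpda and Il1r2 were over 2-fold above Ccr7-zero cells. Clec4n, the lectin dectin-2, was not, at 57.4 CPM in Ccr7-positive Fscn1-low cells, 9.99 in Fscn1-high cells (2 UMIs) and 40.4 in Ccr7-zero cells, a ratio over Ccr7-zero cells of 1.42 (1.25 to 1.62).

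Promoters of the leading genes were read from RefSeq on GRCm38.p6, from 250 bases before the start to 50 after it, and searched on both strands for the consensus of kappaB, the element that NF-kB factors bind. NF-kB drives much of dendritic cell maturation. Of 18 genes looked up (the given markers, the 12 with the largest ratios over Ccr7-zero cells, and Fscn1), 13 had a promoter in the table and 3 of these matched, Hilpda, Ramp3 and Basp1. Of all 32851 promoters in the table, 2779 matched (8.46%). The Hilpda sequence is chr6:29272238-29272537 on the plus strand and belongs to 1 of 2 starts listed. The Ramp3 sequence is chr11:6658283-6658582 on the plus strand, and the Basp1 sequence is chr15:25413715-25414014 on the minus strand, with 4 overlapping matches. They are shown because these 3 promoters matched, and all 3 genes were among the 12 with the largest ratios. Ccl17, Ccl22, Cd274, Il4i1, Plet1 and Procr, also among the 12, had a promoter with 0 matches. Capitals mark the matched letters, which begin 131 bases before the start in Hilpda, 51 in Ramp3 and 172 in Basp1. A match is a description of the letters and not a measured binding site.
Hilpda: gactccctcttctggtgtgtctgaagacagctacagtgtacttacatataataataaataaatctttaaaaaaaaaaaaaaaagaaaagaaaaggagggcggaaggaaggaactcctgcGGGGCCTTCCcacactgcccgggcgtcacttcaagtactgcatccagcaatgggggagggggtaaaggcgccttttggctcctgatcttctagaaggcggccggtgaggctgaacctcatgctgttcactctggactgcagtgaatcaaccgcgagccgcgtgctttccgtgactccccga
Ramp3: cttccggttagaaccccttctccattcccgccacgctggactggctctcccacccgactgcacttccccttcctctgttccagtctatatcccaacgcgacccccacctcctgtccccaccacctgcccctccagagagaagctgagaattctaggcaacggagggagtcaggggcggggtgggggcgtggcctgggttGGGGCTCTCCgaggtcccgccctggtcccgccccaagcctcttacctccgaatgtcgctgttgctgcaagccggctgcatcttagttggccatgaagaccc
Basp1: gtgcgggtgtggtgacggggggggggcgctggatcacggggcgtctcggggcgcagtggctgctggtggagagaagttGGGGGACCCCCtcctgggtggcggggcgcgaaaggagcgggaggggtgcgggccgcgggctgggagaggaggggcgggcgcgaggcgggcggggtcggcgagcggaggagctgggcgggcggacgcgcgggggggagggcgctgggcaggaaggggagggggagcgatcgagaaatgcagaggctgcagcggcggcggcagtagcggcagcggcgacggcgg

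Against Ccr7-zero cells, Ccr7-positive Fscn1-low cells were nearly the same transcriptome, with a small set of genes higher and a larger set lower. Of 6233 genes at 10 CPM or more in 1 of the 2 groups, 52 were higher (0.834%) and 138 lower (2.21%), 3.05% in all, and 85.0% lay within 1.5-fold. The median log2 ratio of all measured genes was -0.17. This median and the shares of 0.834% and 2.21% are the background for each gene list set against Ccr7-zero cells below. The cells were chosen on Ccr7 and Fscn1, which were left out of these counts, so that the ratios describe what goes with Ccr7 in these cells and are no test. The 12 largest ratios at 50 CPM or more belonged to Plet1, Mpp7, Cd274, Procr, Ccl5, Il4i1, Ccl22, Lrrc32, Basp1, Hilpda, Ramp3 and Ccl17.

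**Figure D2:**
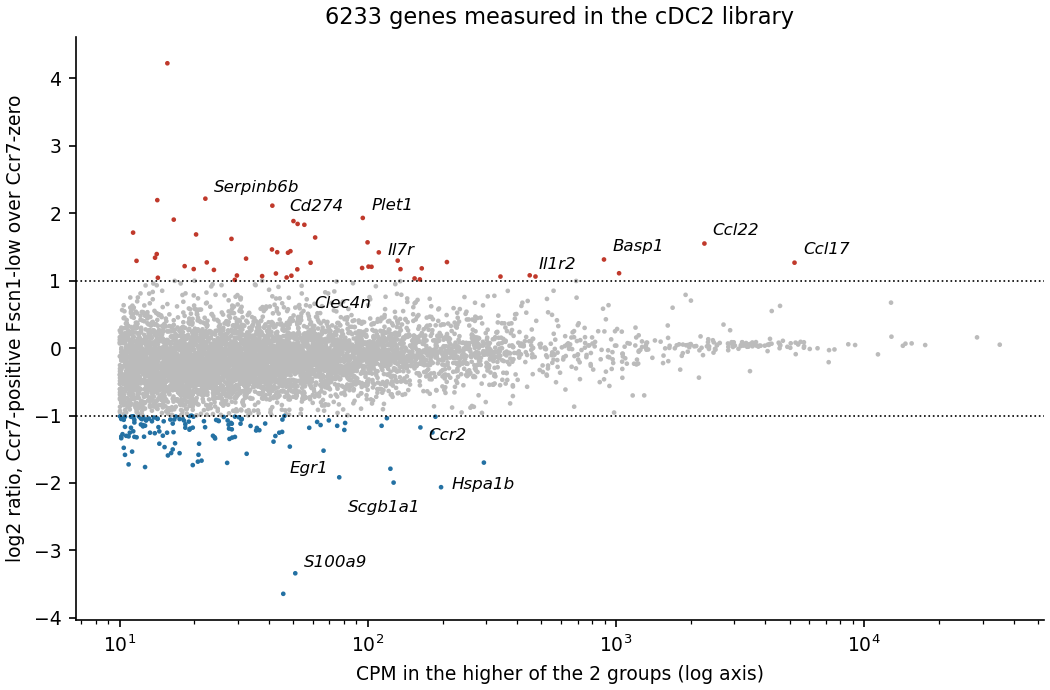
Log2 ratio of CPM, Ccr7-positive Fscn1-low cells over Ccr7-zero cells (y axis), against the CPM in the higher of the 2 groups (log x axis), 1 point per measured gene, 52 red and 138 blue points past 2-fold (dotted lines). Most of the 6233 points lie between the lines, Ccl22 and Ccl17 stand out at high levels, and the lowest points include S100a9, whose level in Ccr7-zero cells came mostly from 1 barcode.

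Chemokine genes were the most abundant of the 52 higher genes. Ccl17 (chr8:94810453-94812036, plus strand) had 5236 CPM in Ccr7-positive Fscn1-low cells, 1999 CPM in Fscn1-high cells and 2179 CPM in Ccr7-zero cells, a ratio over Ccr7-zero cells of 2.40 (2.36 to 2.44). It was thus over 2-fold higher in these cells than in both other groups, but Ccl17 had 3126 CPM in the 61 Fscn1-high cells taken without the Mgl2 and Cd209a requirement, which ends the 2-fold call over Fscn1-high cells (log2 ratio 0.74). Its neighbour Ccl22 (chr8:94745590-94751699, plus strand) had 2269.9 CPM in Ccr7-positive Fscn1-low cells, 3088 CPM in Fscn1-high cells and 776 CPM in Ccr7-zero cells, a ratio over Ccr7-zero cells of 2.92 (2.85 to 3.004). Thinned to 5000 UMIs, the median cell held 18 Ccl17 UMIs among Ccr7-positive Fscn1-low cells, 11 among Fscn1-high cells and 3 among Ccr7-zero cells, and for Ccl22 it held 7 UMIs among Ccr7-positive Fscn1-low cells, 11 among Fscn1-high cells and 1 among Ccr7-zero cells. After thinning 90.6% of Ccr7-positive Fscn1-low cells and 73.0% of Ccr7-zero cells held a Ccl17 UMI, or 95.7% and 85.9% before it, so most Ccr7-zero cells held it too.

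Ccl5, a chemokine that attracts T cells and monocytes, stood out in another way, with 61.4 CPM in Ccr7-positive Fscn1-low cells, 2099 CPM in Fscn1-high cells and 19.7 CPM in Ccr7-zero cells. The ratio over Ccr7-zero cells was 3.11 (2.63 to 3.70), but the level was far below that of Fscn1-high cells. Cxcl2, which attracts neutrophils, had 162 CPM in Ccr7-positive Fscn1-low cells, 9.99 CPM in Fscn1-high cells (2 UMIs) and 80.1 CPM in Ccr7-zero cells. A single barcode gave 14.2% of its UMIs in Ccr7-positive Fscn1-low cells and 24.8% in Ccr7-zero cells. After thinning, 10.6% of Ccr7-positive Fscn1-low cells and 7.90% of Ccr7-zero cells held a Cxcl2 UMI. The inflammatory chemokines Ccl4 and Ccl7 went the other way. Ccl4 had 76.5 CPM in Ccr7-positive Fscn1-low cells and 182 CPM in Ccr7-zero cells (ratio 0.420, 0.388 to 0.455), and Ccl7 had 6.73 CPM in Ccr7-positive Fscn1-low cells and 21.4 CPM in Ccr7-zero cells. In the chemokine list, 4 of 12 measured genes were higher and 3 lower, with a median log2 ratio of -0.29.

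Genes of the dendritic cell maturation list were in part higher. Of 21 measured, 8 were higher than in Ccr7-zero cells and 0 lower (Ccl17, Ccl22, Ccl5, Cd274, Cd63, Il4i1, Serpinb6b and Socs2), and the median log2 ratio was 0.49. Cd274, the checkpoint ligand PD-L1, had 52.1 CPM in Ccr7-positive Fscn1-low cells, 109.9 CPM in Fscn1-high cells and 14.6 CPM in Ccr7-zero cells, a ratio over Ccr7-zero cells of 3.58 (2.95 to 4.37). Il4i1, a secreted enzyme that breaks down aromatic amino acids, had 99.8 CPM in Ccr7-positive Fscn1-low cells, 555 in Fscn1-high cells and 33.7 in Ccr7-zero cells. These genes sat between the other 2 groups. The T cell costimulator Cd86 had 336 CPM in Ccr7-positive Fscn1-low cells, 390 in Fscn1-high cells and 241 in Ccr7-zero cells, a ratio over Ccr7-zero cells of 1.39 that did not reach 2-fold. Of 19 co-signalling genes 1 was higher, Cd274, and 1 lower, the inhibitory receptor Cd200r1 (9.80 CPM in Ccr7-positive Fscn1-low cells and 19.8 in Ccr7-zero cells).

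Apol7c, Cacnb3 and Nudt17, the maturation genes of lowest ratio over Fscn1-high cells, were at 2.34 CPM or less in Ccr7-positive Fscn1-low cells. Apol7c, an apolipoprotein L of mature dendritic cells, had 1.17 CPM in Ccr7-positive Fscn1-low cells, 375 CPM in Fscn1-high cells and 0.717 CPM in Ccr7-zero cells. Cacnb3, a calcium channel subunit, had 2.34 CPM in Ccr7-positive Fscn1-low cells, 165 in Fscn1-high cells and 0.478 in Ccr7-zero cells. Nudt17 had 0.585 CPM in Ccr7-positive Fscn1-low cells, 65.0 in Fscn1-high cells and 0.837 in Ccr7-zero cells. Together the 9 mature dendritic cell markers, Fscn1 included, summed to 2396 CPM in Ccr7-positive Fscn1-low cells, 5322 in Fscn1-high cells and 824 in Ccr7-zero cells, and Ccl22 made up most of the first sum.

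**Figure D3:**
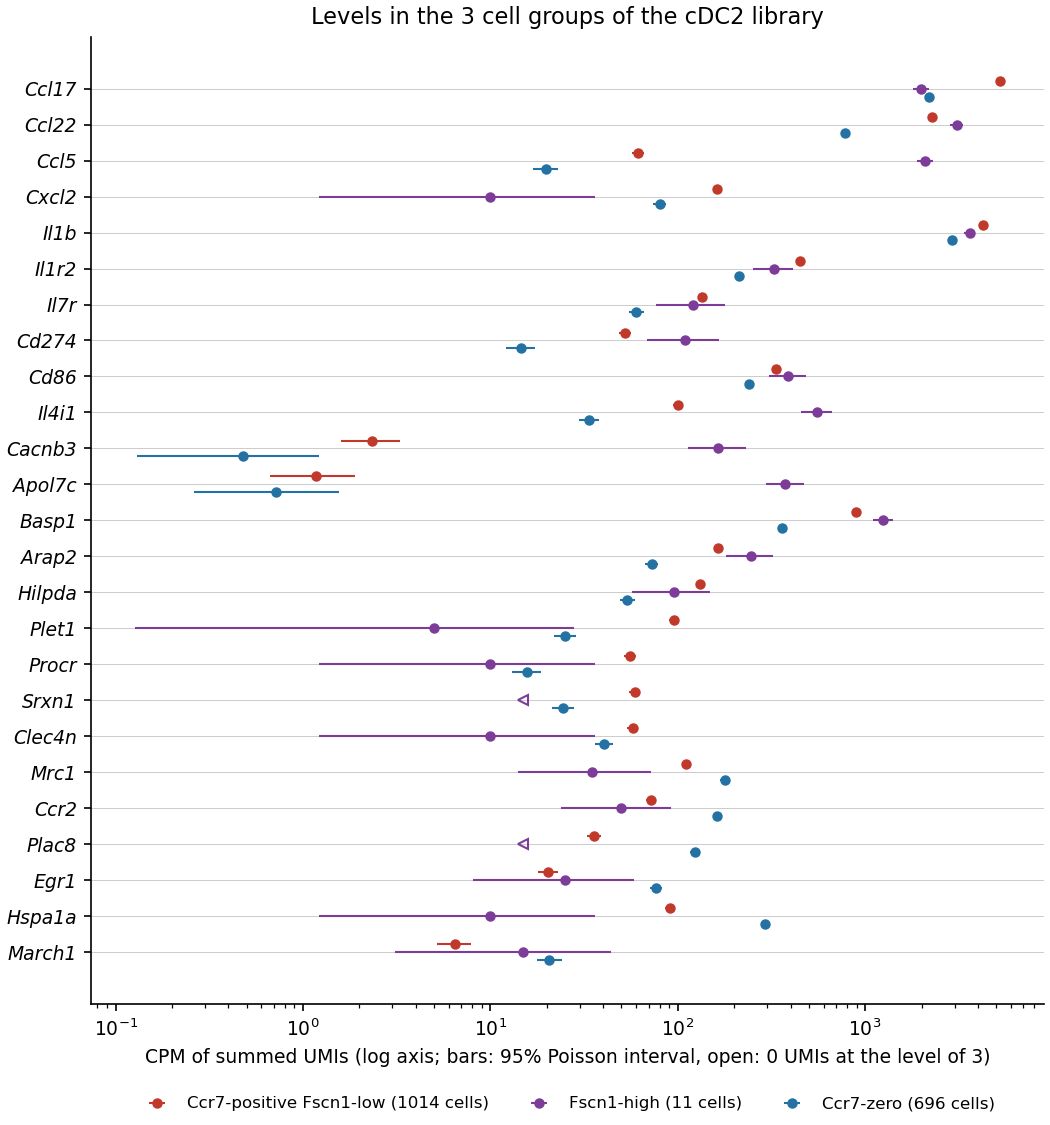
CPM of 25 genes (log x axis) in 1014 Ccr7-positive Fscn1-low cells (red), 11 Fscn1-high cells (purple) and 696 Ccr7-zero cells (blue), with 95% Poisson intervals; open triangles mark 0 UMIs, drawn at the level of 3 UMIs. Cacnb3 and Apol7c are at 2.34 CPM or less in all but Fscn1-high cells, whereas Basp1, Arap2 and Il7r in Ccr7-positive Fscn1-low cells lie within 1.5-fold of these 11 Fscn1-high cells.

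Cytokine receptors set these cells apart from Ccr7-zero cells in a few members only. Il7r, the receptor chain for IL-7 and TSLP, had 135 CPM in Ccr7-positive Fscn1-low cells, 119.9 in Fscn1-high cells and 60.2 in Ccr7-zero cells, a ratio over Ccr7-zero cells of 2.25 (2.04 to 2.49). After thinning, 37.7% of Ccr7-positive Fscn1-low cells and 19.4% of Ccr7-zero cells held an Il7r UMI, or 58.0% and 33.8% before thinning, against 2.11% of thinned kept barcodes of the cDC1 library. Il2ra, the alpha chain for IL-2, had 20.3 CPM in Ccr7-positive Fscn1-low cells, 0 UMIs in Fscn1-high cells and 6.33 CPM in Ccr7-zero cells, but 85.2 CPM in the 61 Fscn1-high cells taken without the Mgl2 and Cd209a requirement. These were the 2 higher genes among 11 measured of the common gamma chain and TSLP list, whose median log2 ratio was 0.16. The partner of Il7r for TSLP, Crlf2, had 149 CPM in Ccr7-positive Fscn1-low cells and 163 in Ccr7-zero cells, and the common gamma chain Il2rg had 159.96 CPM in Ccr7-positive Fscn1-low cells and 143 in Ccr7-zero cells. Stat5a, which carries signals of these receptors, had 245 CPM in Ccr7-positive Fscn1-low cells, 239.8 in Fscn1-high cells and 145 in Ccr7-zero cells, under 2-fold.

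The shared beta chain for GM-CSF, Csf2rb, had 691 CPM in Ccr7-positive Fscn1-low cells, 345 in Fscn1-high cells and 347 in Ccr7-zero cells, just under 2-fold over Ccr7-zero cells at 1.99. Its near-identical copy for IL-3, Csf2rb2, had 103 CPM in Ccr7-positive Fscn1-low cells, 45.0 in Fscn1-high cells and 44.9 in Ccr7-zero cells, and reads may be split uncertainly between both genes. In the IL-1 family list 1 of 11 genes was higher and 1 lower. The higher one, Il1r2, a decoy receptor that binds IL-1 without signalling, had 449 CPM in Ccr7-positive Fscn1-low cells, 325 in Fscn1-high cells and 213 in Ccr7-zero cells (ratio over Ccr7-zero cells 2.11, 2.00 to 2.23). Its ligand Il1b was abundant throughout, with 4238 CPM in Ccr7-positive Fscn1-low cells, 3608 in Fscn1-high cells and 2899 in Ccr7-zero cells. The lower one was the inhibitory receptor Sigirr. Il1rl1, the IL-33 receptor, had 53.5 CPM in Ccr7-positive Fscn1-low cells and 79.7 in Ccr7-zero cells (ratio 0.671, 0.603 to 0.746).

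Among surface and adhesion genes, Plet1 led. This surface glycoprotein (chr9:50494525-50505482, plus strand) had 95.4 CPM in Ccr7-positive Fscn1-low cells, 4.997 in Fscn1-high cells (1 UMI) and 25.1 in Ccr7-zero cells, a ratio over Ccr7-zero cells of 3.803 (3.29 to 4.42). After thinning 16.03% of Ccr7-positive Fscn1-low cells held a Plet1 UMI, against 0 of 11 Fscn1-high cells (upper limit 28.5%) and 4.32% of Ccr7-zero cells. Before thinning the shares were 23.3% of Ccr7-positive Fscn1-low cells and 8.19% of Ccr7-zero cells, and of thinned kept barcodes of the cDC1 library 29.9% held one. Procr, the endothelial protein C receptor, had 55.5 CPM in Ccr7-positive Fscn1-low cells, 9.99 in Fscn1-high cells (2 UMIs) and 15.7 in Ccr7-zero cells. Lrrc32, the GARP protein that holds latent TGF-beta on the cell surface, had 111 CPM in Ccr7-positive Fscn1-low cells, 89.9 in Fscn1-high cells and 41.5 in Ccr7-zero cells. Mpp7, a scaffold protein of cell junctions, had 50.2 CPM in Ccr7-positive Fscn1-low cells, 30.0 in Fscn1-high cells and 13.6 in Ccr7-zero cells.

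Of 38 measured genes of actin, adhesion and migration, 1 was higher and 0 lower than in Ccr7-zero cells, with a median log2 ratio of -0.11. The one was Arap2, a GTPase-activating protein for Arf that acts on focal adhesions, at 165 CPM in Ccr7-positive Fscn1-low cells, 245 in Fscn1-high cells and 72.8 in Ccr7-zero cells (ratio over Ccr7-zero cells 2.27, 2.07 to 2.48). Basp1, a membrane-bound protein known from nerve growth cones, had 894 CPM in Ccr7-positive Fscn1-low cells, 1249 in Fscn1-high cells and 360.2 in Ccr7-zero cells. In the 61 Fscn1-high cells taken without the Mgl2 and Cd209a requirement Arap2 had 175 CPM and Basp1 1516 CPM. Actb, the main actin, had 10638.5 CPM in Ccr7-positive Fscn1-low cells, 15060 in Fscn1-high cells and 11354 in Ccr7-zero cells.

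Single metabolic and survival genes were higher, while most of their lists were not. Hilpda, a lipid droplet protein that inhibits fat breakdown and is induced by hypoxia, had 132 CPM in Ccr7-positive Fscn1-low cells, 94.9 in Fscn1-high cells and 53.8 in Ccr7-zero cells (ratio over Ccr7-zero cells 2.45, 2.21 to 2.73). With Ndrg1 and Vegfa it was 1 of 3 higher genes among 27 of the hypoxia and glycolysis list, whose median log2 ratio was 0.01, and the glycolytic enzyme Gapdh differed little (847 CPM in Ccr7-positive Fscn1-low cells and 713 in Ccr7-zero cells). The antioxidant enzyme Srxn1 had 58.8 CPM in Ccr7-positive Fscn1-low cells, 0 UMIs in Fscn1-high cells and 24.5 CPM in Ccr7-zero cells. Bcl2l1, the survival protein Bcl-xL, had 49.2 CPM in Ccr7-positive Fscn1-low cells, 109.9 in Fscn1-high cells and 23.4 in Ccr7-zero cells. Its relatives Bcl2a1b and Bcl2a1d, near-identical copies, had ratios of 1.63 and 1.73 over Ccr7-zero cells.

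In the NF-kB list 0 of 22 measured genes passed 2-fold in either direction, with a median log2 ratio of 0.23. Relb, the subunit of the alternative pathway, had 74.3 CPM in Ccr7-positive Fscn1-low cells, 405 in Fscn1-high cells and 60.1 in Ccr7-zero cells. The inhibitor Nfkbia was nearly level, with 1973 CPM in Ccr7-positive Fscn1-low cells and 1958 in Ccr7-zero cells. Of 12 SOCS and signalling brake genes only Socs2 was higher, at 11.7 CPM in Ccr7-positive Fscn1-low cells, 60.0 in Fscn1-high cells and 4.78 in Ccr7-zero cells. A further 2 higher genes were picked out after their values were seen. Il12b, a subunit of IL-12 and IL-23, had 15.6 CPM in Ccr7-positive Fscn1-low cells and 0.837 in Ccr7-zero cells, but 46.0% of its UMIs in Ccr7-positive Fscn1-low cells came from 1 barcode. AA467197 had 1029 CPM in Ccr7-positive Fscn1-low cells, 379.8 in Fscn1-high cells and 477 in Ccr7-zero cells, so it was above both groups.

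Stress and immediate early genes, which are known to respond to handling and tissue digestion, were among the 138 lower genes. Of 21 genes of the immediate early and dissociation list 0 were higher and 4 lower (Egr1, Hspa1a, Hspa1b and Hsph1), and the median log2 ratio was -0.56. Egr3, an immediate early factor outside this list, was lower too (ratio over Ccr7-zero cells 0.348, 0.303 to 0.401). Egr1 had 20.3 CPM in Ccr7-positive Fscn1-low cells, 24.98 in Fscn1-high cells and 76.7 in Ccr7-zero cells (ratio over Ccr7-zero cells 0.265, 0.229 to 0.306). The heat shock genes Hspa1a and Hspa1b, near-identical copies, had 90.5 and 47.2 CPM in Ccr7-positive Fscn1-low cells, 9.99 CPM (2 UMIs) each in Fscn1-high cells and 293 and 197 CPM in Ccr7-zero cells. Among Fscn1-high cells taken without the Mgl2 and Cd209a requirement (61 cells) the levels were 410 and 209 CPM, above those of Ccr7-positive Fscn1-low cells. The part of tissue handling in these differences was not tested.

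In the list of cDC2 identity and tissue cDC2 genes, the few that passed 2-fold were all lower. Of 24 measured genes of the cDC2 identity list 0 were higher and 3 lower (Ccr2, Cd7 and Plac8), and the median log2 ratio was -0.35. Over all 6233 measured genes 0.834% were higher and 2.21% lower. Mgl2 and Cd209a of that list were used to keep barcodes. The monocyte chemokine receptor Ccr2 had 72.0 CPM in Ccr7-positive Fscn1-low cells, 49.97 in Fscn1-high cells and 163 in Ccr7-zero cells (ratio over Ccr7-zero cells 0.442, 0.407 to 0.480). The mannose receptor Mrc1 had 111 CPM in Ccr7-positive Fscn1-low cells, 35.0 in Fscn1-high cells and 178 in Ccr7-zero cells. The inhibitory Fc receptor Fcgr2b had 212 CPM in Ccr7-positive Fscn1-low cells, 155 in Fscn1-high cells and 374 in Ccr7-zero cells. Neither Mrc1 nor Fcgr2b passed 2-fold (ratios over Ccr7-zero cells 0.625 and 0.566). Cd209a had 717 CPM in Ccr7-positive Fscn1-low cells and 1167 in Ccr7-zero cells, while Mgl2 had 1698 CPM in Ccr7-positive Fscn1-low cells and 1840.1 in Ccr7-zero cells. Of 17 pattern recognition genes 0 passed 2-fold either way, but the median log2 ratio was -0.36. Toll-like receptor Tlr2 had 58.7 CPM in Ccr7-positive Fscn1-low cells and 99.1 in Ccr7-zero cells.

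Plac8 had 35.7 CPM in Ccr7-positive Fscn1-low cells, 0 UMIs in Fscn1-high cells and 123 CPM in Ccr7-zero cells, and Cd7 had 13.02 CPM in Ccr7-positive Fscn1-low cells, 65.0 in Fscn1-high cells and 28.1 in Ccr7-zero cells. Without the Ccr7-zero cells that held 5 or more Plac8 and Cd7 UMIs together, 626 remained and the log2 ratios turned to 1.95 for Plac8 and 1.27 for Cd7. This setting leaves such cells out of the Ccr7-zero group only, which by itself moves both ratios up. S100a9 (5.05 CPM in Ccr7-positive Fscn1-low cells and 51.0 in Ccr7-zero cells) and the club cell gene Scgb1a1 (31.9 CPM in Ccr7-positive Fscn1-low cells and 127 in Ccr7-zero cells) took 90.9% and 62.8% of their Ccr7-zero UMIs from 1 barcode each. With barcodes rich in these genes left out, the log2 ratio of S100a9 was 0.11 and that of Scgb1a1 -0.57, so that neither was 2-fold lower. Summed over the 7 neutrophil markers the levels were 12.1 CPM in Ccr7-positive Fscn1-low cells, 4.997 in Fscn1-high cells and 104 in Ccr7-zero cells, and 6 of the 7 were at 0 UMIs in Fscn1-high cells, 0 of the 7 in either other group. The 7 classical monocyte markers summed to 81.4 CPM in Ccr7-positive Fscn1-low cells, 60.0 in Fscn1-high cells and 186 in Ccr7-zero cells, Ccr2 included. The 6 epithelial markers summed to 88.9 CPM in Ccr7-positive Fscn1-low cells, 49.97 in Fscn1-high cells and 186 in Ccr7-zero cells. The 9 macrophage markers summed to 31.5 CPM in Ccr7-positive Fscn1-low cells, 9.99 in Fscn1-high cells and 31.7 in Ccr7-zero cells, and the B cell markers to 29.9 CPM in Ccr7-positive Fscn1-low cells, 49.97 in Fscn1-high cells and 65.7 in Ccr7-zero cells. In every group the rule held C1qa, C1qb, C1qc, Fn1 and F13a1 together under 5 UMIs per barcode and Cd79a at 0. The macrophage, classical monocyte and B cell sums hold some of these genes and are thus in part low by the rule. Markers of T cells, NK and innate lymphoid cells, basophils and mast cells, and endothelial cells and fibroblasts each summed to 10.2 CPM or less in every group. The 7 nonclassical monocyte markers, Eno3 included, summed to 559.8 CPM in Ccr7-positive Fscn1-low cells, 969 in Fscn1-high cells and 763 in Ccr7-zero cells. Of these 7, 3 reached 10 CPM in Ccr7-positive Fscn1-low cells and 3 were at 0 UMIs in Fscn1-high cells. The 6 plasmacytoid dendritic cell markers summed to 253 CPM in Ccr7-positive Fscn1-low cells, 219.9 in Fscn1-high cells and 256 in Ccr7-zero cells. Of these 6, 2 reached 10 CPM in Ccr7-positive Fscn1-low cells and 4 were at 0 UMIs in Fscn1-high cells. The part of such RNA in the lower genes was not tested beyond these values.

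Antigen presentation differed little. Of 16 MHC class II genes 0 were higher and 1 lower, and of 20 MHC class I genes none passed 2-fold, with median log2 ratios of -0.02 and -0.05. H2-Ab1 had 14651 CPM in Ccr7-positive Fscn1-low cells, 10803 in Fscn1-high cells and 14012 in Ccr7-zero cells. The lower gene was March1, the ubiquitin ligase that removes class II from the surface of immature dendritic cells, at 6.44 CPM in Ccr7-positive Fscn1-low cells, 14.99 in Fscn1-high cells (3 UMIs) and 20.7 in Ccr7-zero cells (ratio over Ccr7-zero cells 0.311, 0.238 to 0.405). Among 50 transcription factors 0 were higher and 5 lower (Egr1, Egr3, Id3, Irf1 and Irf8), where 2.21% of all measured genes were lower. Irf8 had 9.65 CPM in Ccr7-positive Fscn1-low cells, 70.0 in Fscn1-high cells and 23.8 in Ccr7-zero cells, where 21.1% of its UMIs came from 1 barcode. Of the remaining lists, 26 ribosomal protein genes had 0 calls and a median of 0.05, and 8 chemokine receptors besides Ccr7 had 1 lower gene, Ccr2, and 0 higher. Of 17 lectin genes 1 was higher, Cd207 (langerin), and 0 lower, with a median of -0.31. Of 17 genes of endocytosis and Fc receptors 1 was lower, the scavenger receptor Cd163, of 13 genes shared by conventional dendritic cells 1, Naaa, and of 8 interferon-stimulated genes 1, Cxcl10, with none higher. The lipid list of 12 genes had 1 higher, Hilpda, and 1 lower, Hpgd, and the survival list of 17 had Bcl2l1 higher and Bbc3 lower. Among 11 cytokines Il12b and Vegfa were higher and Tnf lower.

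Along the amount of Ccr7, some of the leading genes rose step by step and others did not. The leading genes were picked by their ratio in cells chosen on Ccr7, so their order along Ccr7 is a description and no test. Kept barcodes under 3 Fscn1 UMIs were placed in 5 bins of 0, 1, 2 to 3, 4 to 7 and 8 or more Ccr7 UMIs, with 671, 201, 168, 215 and 615 cells after thinning each to 5000 UMIs. Bins were read from unthinned counts. Of 4438 genes at 20 CPM or more, 113 were higher in every step and 215 lower in every step, and 51 were 2-fold higher and 127 2-fold lower at 8 or more Ccr7 UMIs than at 2 to 3. Ccl22 had 769, 983, 1175, 1780.5 and 2695 CPM over the 5 bins. Ccl17 had 2052, 2328, 3187, 3885 and 6256 CPM. Il7r had 54.8, 64.7, 75.0, 106 and 164 CPM, and Arap2 had 73.6, 90.5, 98.8, 117 and 207 CPM. Each of these genes was thus graded among the Ccr7-positive Fscn1-low cells and had a higher value at 1 UMI than at 0. No intervals were computed for the bins, so small steps such as those of Il7r and Arap2 from 0 to 1 UMI may lie within counting error. Cd274 (16.1, 27.9, 30.95, 40.0 and 63.4 CPM) and Il1r2 (201, 244, 342, 367 and 517 CPM) had the same order. Of the other leading genes Ccl5, Lrrc32 and Basp1 also rose in every step.

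Ccr2 ran the opposite way, with 163, 112, 106, 80.0 and 51.4 CPM over the 5 bins, and so did Egr3, an immediate early factor, with 65.9, 52.7, 44.0, 31.6 and 14.0 CPM. Olfm1, a secreted glycoprotein, had 252, 230, 212, 172 and 94.96 CPM. Mgl2 was almost level, between 1651 and 1744 CPM. Fscn1 itself had 2.98, 1.99, 3.57, 2.79 and 2.93 CPM, values that rest on few UMIs, in cells that the rule holds under 3 UMIs. The 11 Fscn1-high cells that the rule leaves out all had 27 or more Ccr7 UMIs, so only the last bin is lowered by it. The level order of Fscn1 is thus in part set by the rule. Plet1 and Hilpda had no step order (21.2, 60.7, 52.4, 89.3 and 109 CPM for Plet1, and 48.9, 60.7, 95.2, 90.2 and 171 CPM for Hilpda), though both were highest in the last bin. The leading genes Mpp7, Procr, Il4i1 and Ramp3 did not rise in every step either, and they too were highest in the last bin.

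**Figure D4:**
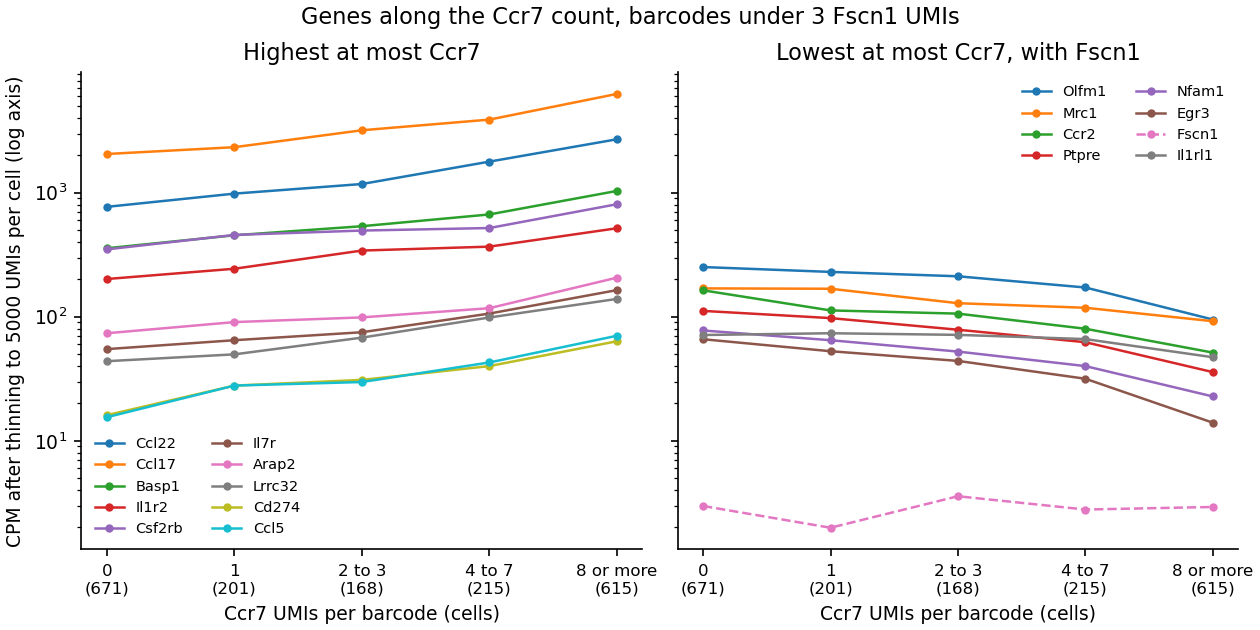
CPM (log y axis) after thinning to 5000 UMIs per cell, over 5 bins of Ccr7 UMIs (x axis, number of cells in brackets), for genes highest in the last bin (left) and for genes lowest in it with Fscn1 dashed (right). Lines such as Ccl22 climb from 769 to 2695 CPM over the bins, and Ccr2 declines to 51.4 CPM. Fscn1, which the rule holds under 3 UMIs per barcode, is at 1.99 to 3.57 CPM.

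Against the 11 Fscn1-high cells the comparison is coarse, since 10 CPM is 2 UMIs there. Of 6289 measured genes, 591 were higher in Ccr7-positive Fscn1-low cells (9.4%) and 1040 lower (16.5%), 25.9% in all, but for only 150 and 580 of them did the counting interval leave out a ratio of 1. The lowest ratios at 50 CPM were those of Apol7c, Nudt17, Cacnb3, Lad1, Eno3, Ccl5, Dnase1l3 and Tm4sf5. Of 29 maturation genes measured here 1 was higher, Ccl17, and 19 lower, with a median log2 ratio of -1.80. The protease inhibitor Serpinb6b had 22.2 CPM in Ccr7-positive Fscn1-low cells, 139.9 in Fscn1-high cells and 4.78 in Ccr7-zero cells, and Serpinb9, which blocks granzyme B, had 41.3 CPM in Ccr7-positive Fscn1-low cells, 129.9 in Fscn1-high cells and 9.56 in Ccr7-zero cells. Rgs1, which dampens chemokine receptor signals, had 441 CPM in Ccr7-positive Fscn1-low cells and 1159 in Fscn1-high cells, and Gpr183, the oxysterol receptor that positions dendritic cells in lymphoid tissue, had 192 CPM in Ccr7-positive Fscn1-low cells and 485 in Fscn1-high cells.

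Some lectin and scavenger receptor genes were higher in Ccr7-positive Fscn1-low than in Fscn1-high cells. Of 18 lectin genes 7 were higher and 1 lower, Ly75, with a median log2 ratio of 0.76, and of 18 genes of endocytosis, Fc and scavenger receptors 4 were higher and 1 lower, Fcgr4, with a median of 0.60. Clec10a had 138 CPM in Ccr7-positive Fscn1-low cells and 24.98 in Fscn1-high cells (5 UMIs). Cd14, the co-receptor for bacterial lipopolysaccharide, had 747 CPM in Ccr7-positive Fscn1-low cells and 299.8 in Fscn1-high cells. The 213 Ccr7-positive Fscn1-low cells with as many Ccr7 UMIs as Fscn1-high cells gave 540 higher and 1191 lower genes, 463 and 941 of them the same genes as for all 1014 cells, with the same 11 Fscn1-high cells in both comparisons. Set against the 61 Fscn1-high cells taken without the Mgl2 and Cd209a requirement, all 1014 cells gave 639 higher and 1126 lower genes, of which 240 and 524 were the same genes as with the 11 cells.

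Over the 3 groups at once, 6677 genes were measured. In Ccr7-positive Fscn1-low cells 96 genes lay at least 1.5-fold above Ccr7-zero and 1.5-fold below Fscn1-high cells, Cd274, Il4i1 and Ccl5 among them, and 144 lay in the opposite order, such as Mrc1. Another 72 differed 2-fold from Ccr7-zero cells and were within 1.5-fold of Fscn1-high cells, such as Il7r and Arap2, and also Ccl22 and Basp1. A count of 0 was set to 3 UMIs for these patterns. Il2ra, Cd163 and Cxcl10 are thus among the 72 with 0 UMIs in Fscn1-high cells, and S100a9 is there with 1 UMI. For such genes the place among the 72 shows no likeness to Fscn1-high cells. How many of the 72 rest on few UMIs was not counted. Only 12 were above both groups, 0.180% of the genes, namely Ccl17, Plet1, Procr, Csf2rb2, Cxcl2, Ocstamp, Srxn1, Vegfa, AA467197, Alpk2, Alyref2 and H1fx, and 77 were below both. In Fscn1-high cells all of the 12 but Ccl17, Csf2rb2 and AA467197 rest on 5 UMIs or fewer each. With the 61 Fscn1-high cells taken without the Mgl2 and Cd209a requirement, 26 of the 72 genes stayed within 1.5-fold, Il7r and Arap2 among them. Ccl22 was then at 5952 CPM and Basp1 at 1516 CPM in Fscn1-high cells, both over 1.5-fold above Ccr7-positive Fscn1-low cells. Of the 12 genes above both groups 8 stayed so, and Ccl17, Csf2rb2, Alpk2 and H1fx did not.

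The same cut in the cDC1 library gave 97 Ccr7-positive Fscn1-low cells and 1337 Ccr7-zero cells. There 221 of 6204 measured genes were higher (3.56%) and 347 lower (5.59%), 9.16% in all. Of the 52 genes higher in the cDC2 library 44 were measured in the cDC1 library, where 33 were higher, 0 lower and all 44 above a log2 ratio of 0, with a median of 1.66. Over all 6204 genes 39.7% were above 0 and the median was -0.11. Of the 138 lower genes 89 were measured, 46 were lower and 1 higher, with a median of -1.10. Of these 89, 6 were above a log2 ratio of 0, the higher one included. The minimum level bears on these counts. A gene under it in cDC1-library Ccr7-zero cells counted as measured only if the Ccr7-positive Fscn1-low cells reached it. Its log2 ratio was then above 0 by selection, as for Il7r, Arap2, Cd274 and Ccl5. A gene under it in Ccr7-positive Fscn1-low cells was likewise below 0 by selection. Ccl22, Ccl17 and Basp1 passed it in both groups. How many of the 44 were above 0 by selection was not counted. Il7r had 26.1 CPM in the cDC1-library Ccr7-positive Fscn1-low cells and 2.33 CPM in their Ccr7-zero cells, and Arap2 had 21.3 CPM in the cDC1-library Ccr7-positive Fscn1-low cells and 3.42 CPM in their Ccr7-zero cells. The ratios of both were larger than in the cDC2 library, though the levels were lower. Il1r2 (90.1 CPM in Ccr7-positive Fscn1-low and 69.8 in Ccr7-zero cells) and Hilpda (17.2 CPM in Ccr7-positive Fscn1-low and 12.1 in Ccr7-zero cells) did not reach 2-fold in the cDC1 library, with ratios of 1.29 and 1.42, and no test of the difference between libraries can be had.

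**Figure D5:**
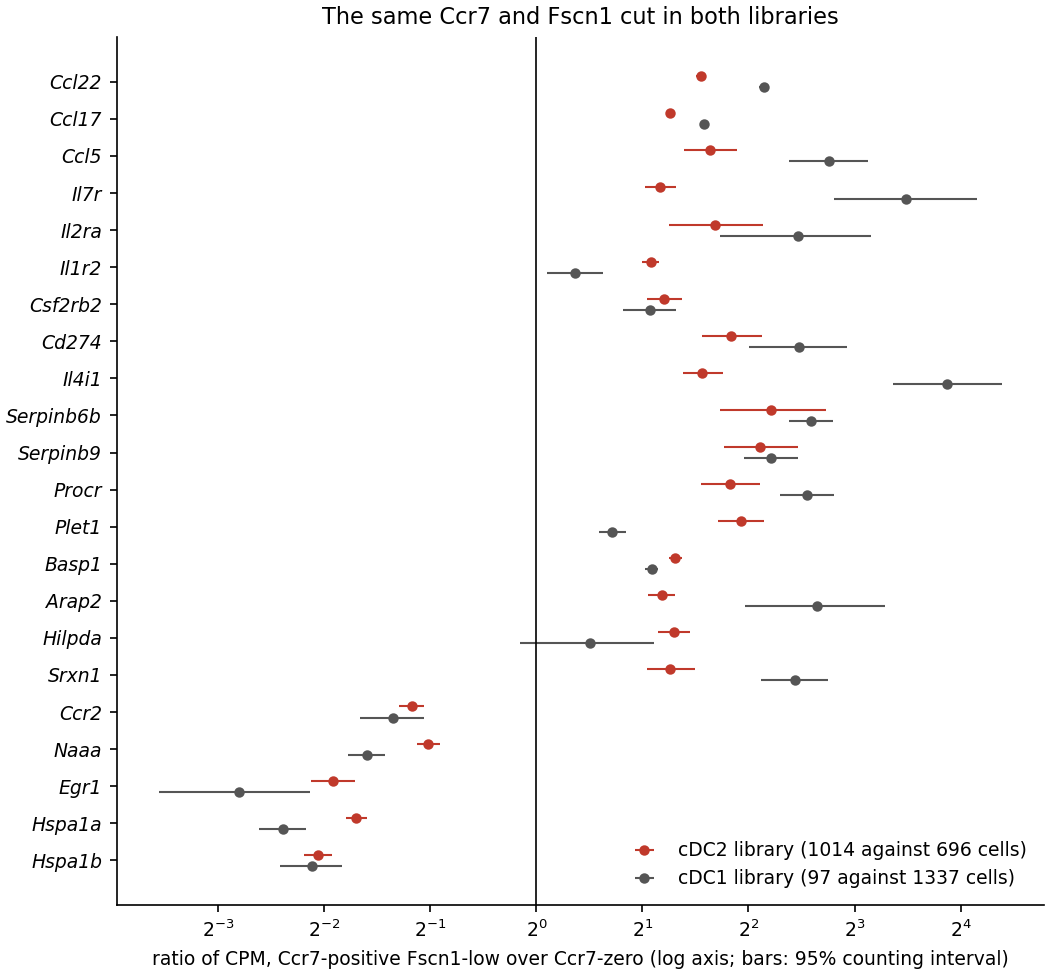
Ratio of CPM, Ccr7-positive Fscn1-low over Ccr7-zero cells (log x axis), of 22 genes in the cDC2 library (red) and in the cDC1 library (grey), with 95% counting intervals. All 17 genes above 1 in the cDC2 library are above 1 in the cDC1 library, where the interval of Hilpda spans 1, and all 5 below 1 are below 1 in both. The 22 genes were picked from the genes named in the text, so these counts do not measure agreement between the libraries. Plac8, Cxcl10 and Scgb1a1, lower in the cDC2 library and not drawn, had cDC1-library ratios of 1.05, 1.51 and 1.07.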

How the data were processed

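2 droplet libraries of sorted lung cDC were analysed, 1 per sort. The deposited values are raw counts of UMIs, 1 matrix of genes by barcodes per library. Per the submitters' processing notes they come from Cell Ranger 3.2 on mm10, while the matrix headers carry software version 3.0.2. Which annotation release was used, and how barcodes were selected, was not given in the sources used here. Of 31053 features 30934 were matched by ID to GENCODE vM21 (GRCm38) for coordinates. Doublets were neither called nor removed here.

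UMIs were summed over the cells of each group and scaled to CPM (Python 3.11.15, numpy 2.4.6, scipy 1.17.1, pandas 2.3.3). Levels have exact Poisson intervals, shares exact binomial (Clopper-Pearson) ones and ratios exact conditional binomial ones, at 95%, and cover no more than counting error. Genes at 10 CPM in 1 of the 2 groups counted as measured and were called at 2-fold; a group at 0 was set to 3 counts. Without replicates no p-value was computed. Thinning drew 5000 UMIs per cell, leaving out shallower cells (16 of 1014 Ccr7-positive Fscn1-low, 0 of 11 Fscn1-high and 25 of 696 Ccr7-zero cells). The code was tested on simulated data. In the cDC1 library the cDC2 gate was replaced by 3 UMIs of Xcr1 and Clec9a.

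The cell groups, 24 gene lists, 17 marker lists and the alternatives were chosen with earlier results of these data known. Genes named are the given markers, the 12 largest and smallest ratios over Ccr7-zero cells and the 8 largest and smallest over Fscn1-high cells at 50 CPM, per list up to 4 of largest ratio at 20 CPM and 2 of highest level, and the 8 leading genes of each pattern. Others, among them Relb, Crlf2, Csf2rb, Clec10a, Sirpa, Xcr1, Irf4, H2-Ab1, Cd200r1, Olfm1, Id3, Il12b and AA467197, were named after their values were seen.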

Additional observations from a re-analysis of the deposited data

Results flagged for a closer look

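Tspan32, a tetraspanin, moved in opposite directions in the 2 libraries. In the cDC2 library it had 5.92 CPM in Ccr7-positive Fscn1-low cells and 12.2 CPM in Ccr7-zero cells, a log2 ratio of -1.04. In the cDC1 library it had 12.4 CPM in Ccr7-positive Fscn1-low cells and 5.01 CPM in Ccr7-zero cells, a log2 ratio of 1.31. It was picked out because it was the only gene called in opposite directions, and the difference was not tested.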

How the results depend on the processing

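No paired analysis was possible because there is 1 library per sort and no replicate. The 52 higher and 138 lower genes against Ccr7-zero cells became 520 and 1389 with no minimum level, 25 and 19 at 50 CPM and 176 and 761 at 1.5-fold. The lower genes became 74 with Ccr7-positive cells from 1 UMI and 221 from 4 UMIs. From 8 UMIs, an alternative chosen after seeing the data, 618 cells gave 88 and 331. Against Fscn1-high cells the 591 higher and 1040 lower genes became 132 and 265 at 50 CPM, 1046 and 1789 at 1.5-fold and 150 and 580 where the interval leaves out 1. The lower ones became 5957 with no minimum and 2397 with Fscn1 at 10 UMIs (5 cells), and the higher ones 897 with cells weighted by depth.

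Of the single genes, S100a9 over Ccr7-zero cells turned to 0.0433 (log2) with Mgl2 and Cd209a at 10 UMIs and 0.11 without rich barcodes, and Plac8 and Cd7 to 1.95 and 1.27 without Ccr7-zero cells rich in both. Over Fscn1-high cells Plin2 turned to -0.0416 without barcodes above 25000 UMIs, and Fas to -0.0046 and Tnfrsf18 to 0.92 with Fscn1 at 10 UMIs. With the 61 Fscn1-high cells taken without the cDC2 gate, log2 ratios turned to -1.42 for Ccl4, 0.64 for Ccl7, -1.48 for Fas and -2.18 for Hspa1a. In the same setting they turned to -2.15 for Hspa1b, -1.05 for Isg15, -0.0163 for Plac8 and -0.31 for Plin2. With only the 213 Ccr7-positive Fscn1-low cells at 27 or more Ccr7 UMIs, Plac8 turned to -2.15. The 11 Fscn1-high cells hold 0 Plac8 UMIs, set to 3 counts, so this value shows no higher Plac8 level there. The settings without the cDC2 gate and at 27 Ccr7 UMIs, the rich-barcode and the Plac8 and Cd7 settings were chosen after seeing the data. The cause was not tested. Over all alternatives run, Ccl22 kept a log2 ratio over Ccr7-zero cells of 1.39 to 1.82, Ccl17 of 1.13 to 1.52, Il7r of 1.05 to 1.43 and Arap2 of 1.07 to 1.44. Of the other given markers Hilpda ranged from 1.18 to 1.54, Il1r2 from 0.96 to 1.23 and Clec4n from 0.35 to 0.69. Il1r2 thus did not stay over 2-fold in every alternative. The 11 Fscn1-high cells limit every value set against them.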
